A study of Mus musculus with 24 samples.

Results

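The genes of purine and pyrimidine nucleotide metabolism were measured on 1-colour expression arrays in 7 mouse tumour cell lines. The group held 44 genes of the 45616 genes and transcripts on the array, and a gene was a member where its RefSeq entry belonged to a fixed list of enzymes that make, salvage, convert or break down nucleotides. Adss, Adssl1 and Ctps are written as the array names them (Adss2, Adss1 and Ctps1 in the current nomenclature). The 5 melanoma lines were B16-M, the parental B16-F1 cells carrying green fluorescent protein (3 arrays), B16-D, dormant cells of that line (4 arrays), and B16-D-733 (4 arrays), B16-D-735 (3 arrays) and B16-D-739 (3 arrays). The melanoma dormancy model was made in syngeneic mice vaccinated with irradiated cells that expressed GM-CSF, and the leukemia model with cells that expressed IL-12. The leukemia lines were M0-p20 (4 arrays) and J365-p20 (3 arrays), names that the labels do not spell out, and they are compared as labelled, with M0-p20 taken as the reference. The labels name the 3 numbered lines after B16-D and do not say how each was obtained. B16-D-733 replicates 1 and 3 carry the same sample name in their titles and lay on the same slide. Whether they are separate samples is not stated. The titles of B16-D and B16-D-733 replicates 1, 2 and 3 carry a date, and no other title does. What the date marks is not stated, and it falls in these lines only. The melanoma lines grew in DMEM with serum, and the medium of the leukemia lines was not given in the sources used here. Dormant cells were amplified in culture before RNA was taken, so every group was 1 cultured line, and a difference between dormant and parental state cannot be told apart from a difference between these particular lines. The arrays of a line were not stated to come from separate cultures, so p-values measure only the spread between arrays, which may be technical.

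Cells make purines stepwise on phosphoribosyl pyrophosphate up to IMP, which branches to AMP and GMP, and make pyrimidines by building an orotate ring that becomes UMP and then CTP. Salvage enzymes rebuild nucleotides from free bases and nucleosides, ribonucleotide reductase and thymidylate synthase supply the DNA precursors, and kinases and deaminases balance the pools. Proliferating tumour cells rely on these routes for DNA and RNA, and melanoma and leukemia are both treated experimentally or clinically with drugs that act on them.

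All levels are log2 of the processed signal minus the 75th percentile of the same array, so 0 is the signal under which 75% of its spots lie, and a level is compared only between arrays for the same probe. Between 46.0% and 55.8% of spots were well above background on 23 arrays, against 90.3% on B16-D replicate 2, which was left out of all fits. B16-D replicate 0 had the fewest spots above background (46.0%) and stood farther from its line than the others. The 7 pigment cell markers were above background on every melanoma array, and 3 of 7 (Mitf, Tyr and Sox10) were on every leukemia array. Of 9 leukocyte markers, 7 were above background on every leukemia array, while Kit and Cd33 were on none. On the 16 melanoma arrays of the fits, Itgam and Kit were above background on every array and Coro1a on all but 1, while Cd33 and the general leukocyte marker Ptprc were on none. The log2 of the summed signal of 6 fibroblast markers was 0.13 to 0.60 on the B16-D-735 arrays, against -1.82 to -0.39 on the other 13 melanoma arrays of the fits, and decorin (Dcn) was above background on 3 of 3 B16-D-735 arrays and on no array of another line. Of the other 5 fibroblast markers, 2 (Col1a1 and Col1a2) were on every B16-D-735 array and 3 on none. Of those 3, Pdgfra was on 3 of 3 B16-M arrays. Col1a2 was above background on every melanoma array of the fits, with a mean of -0.15 in B16-D-735 and -0.89 in B16-M. In the bulk RNA of such a line, fewer cells of a type and less RNA per cell cannot be told apart.

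Of the 44 members, 43 were well above background on every array of each line, and the exception was Nt5e. This gene, which encodes the surface 5'-nucleotidase that makes adenosine from AMP, was above background on no melanoma array of the fits and on 3 of 4 M0-p20 arrays. Nt5e was at least 1.64-fold brighter in M0-p20 than in B16-M (means -4.19 and -6.93). The melanoma comparisons therefore tested 43 members.

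Most members moved little between the melanoma lines. The largest changes were those of Adssl1 and Ak4, by several fold, then of Ampd3, and smaller ones were found in Aprt, Ada and Impdh1. In B16-D against B16-M, limma called 3 of 43 members at an adjusted p under 0.05, all higher (Adssl1, Ak4 and Aprt), where 3.60% of all 24312 genes tested were called. In B16-D-733 it called 5 members, all higher (Adssl1, Ak4, Aprt, Ada and Impdh2), against 5.57% of all genes. In B16-D-739 it called 3, all higher (Adssl1, Ak4 and Ada), against 3.71%. In B16-D-735 it called Ampd3 higher and Ada lower, a share near the 5.03% over all genes. These comparisons share the B16-M arrays, so their counts are not independent. The median absolute log2 change of the members was 0.25 in B16-D, against 0.26 over all genes, and 36 of 43 members changed by under 0.5. With the slide as a block the counts were 5 in B16-D (with Impdh1 and Impdh2), 9 in B16-D-733 (with Atic, Dhodh, Dut and Impdh1), 3 in B16-D-735 (with Dhodh) and 8 in B16-D-739 (with Aprt, Dhodh, Dut, Impdh1 and Impdh2). With the replicate number as a block, B16-D-739 had 7 (with Aprt, Impdh1, Impdh2 and Umps) and B16-D-733 had 7 (with Adss and Ctps). Without B16-M replicate 0 the counts were 6 in B16-D and 5 in B16-D-739, and the B16-D count was 2 without B16-M replicate 1, B16-M replicate 2, B16-D replicate 0 or B16-D replicate 1. The B16-D-733 count was 3 without B16-M replicate 1, B16-M replicate 2 or B16-D-733 replicate 1. The B16-D-735 count was 0 without B16-M replicate 0, B16-M replicate 2, B16-D-735 replicate 1 or B16-D-735 replicate 2, and 1 without B16-M replicate 1 or B16-D-735 replicate 0.

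**Figure D1:**
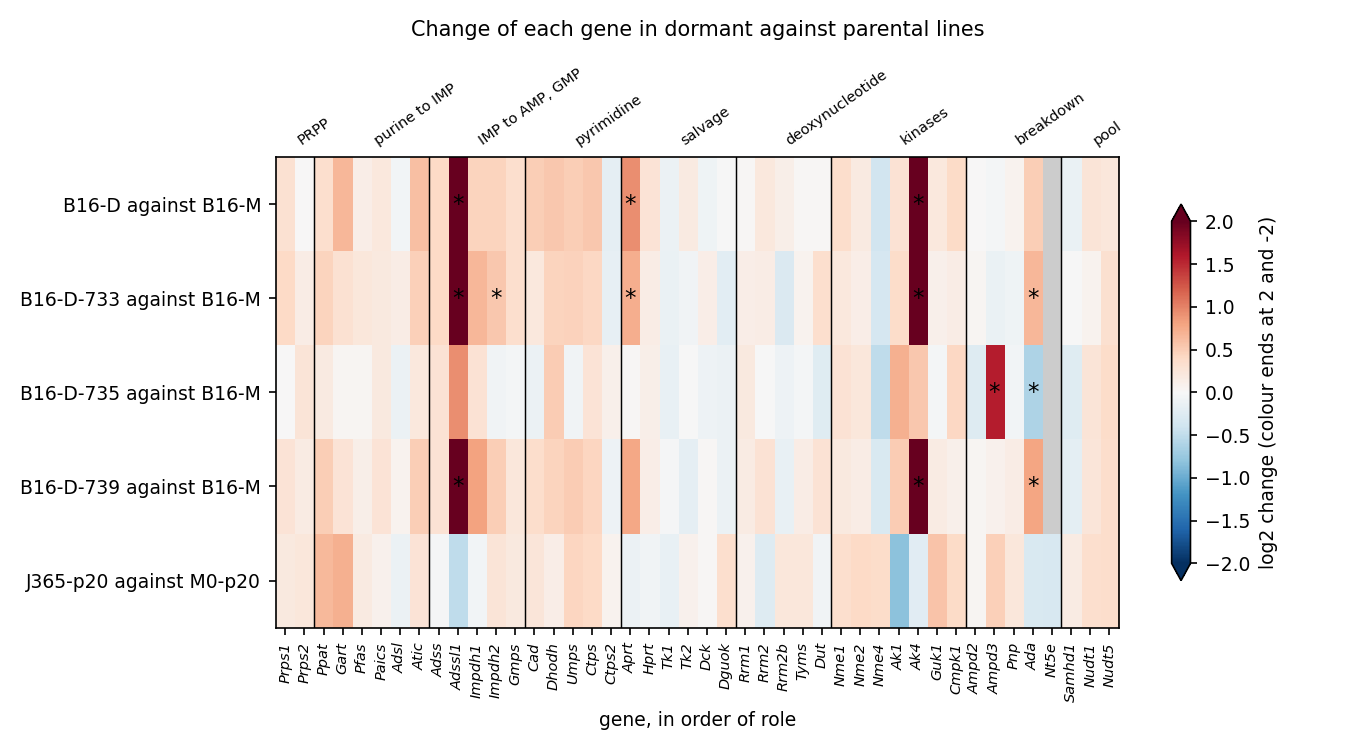
Log2 change of each member (columns, ordered by role) in each comparison (rows), with the colour scale ending at -2 and 2, an asterisk for an adjusted p under 0.05 and grey where a member was not tested. Adssl1 and Ak4 stand out in B16-D, B16-D-733 and B16-D-739, with log2 changes from 2.03 to 3.31, and the B16-D-735 row holds 2 asterisks, on Ampd3 and Ada.

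The promoters of 4 members called against B16-M are shown, those of Adssl1 and Ak4, which had the largest rises, and those of Impdh2 and Ampd3, which with Ak4 were the members so called that hold the letters marked in capitals. They were chosen after the values were seen, and Aprt and Ada, also called, hold no such letters in their windows. The sequences are the 250 bases before the annotated start from RefSeq on GRCm38.p6, written 5' to 3' on the strand of the gene, and capitals mark the E-box letters CACGTG, which Myc and related factors can bind. Adssl1 is at chr12:112619797-112620046 on the plus strand, the Ak4 window that holds the letters, 1 of 4 windows of the gene, at chr4:101419453-101419702 on the plus strand, Impdh2 at chr9:108560186-108560435 on the plus strand, and the Ampd3 window that holds the letters, 1 of 3, at chr7:110772354-110772603 on the plus strand.
Adssl1: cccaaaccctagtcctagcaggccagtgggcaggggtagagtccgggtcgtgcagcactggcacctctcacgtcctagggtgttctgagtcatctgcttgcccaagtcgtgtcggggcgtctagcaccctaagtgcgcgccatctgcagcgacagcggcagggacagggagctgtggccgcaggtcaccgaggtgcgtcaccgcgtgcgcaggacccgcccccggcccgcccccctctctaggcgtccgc
Ak4: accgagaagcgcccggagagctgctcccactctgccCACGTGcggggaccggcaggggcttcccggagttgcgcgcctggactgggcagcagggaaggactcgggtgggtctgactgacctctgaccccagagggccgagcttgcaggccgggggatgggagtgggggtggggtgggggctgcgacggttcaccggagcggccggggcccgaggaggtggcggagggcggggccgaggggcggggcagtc
Impdh2: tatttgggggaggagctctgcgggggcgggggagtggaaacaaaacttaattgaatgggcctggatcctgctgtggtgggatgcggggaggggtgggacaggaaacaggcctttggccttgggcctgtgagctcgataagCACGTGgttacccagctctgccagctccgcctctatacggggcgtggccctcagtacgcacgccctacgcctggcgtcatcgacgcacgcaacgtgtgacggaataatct
Ampd3: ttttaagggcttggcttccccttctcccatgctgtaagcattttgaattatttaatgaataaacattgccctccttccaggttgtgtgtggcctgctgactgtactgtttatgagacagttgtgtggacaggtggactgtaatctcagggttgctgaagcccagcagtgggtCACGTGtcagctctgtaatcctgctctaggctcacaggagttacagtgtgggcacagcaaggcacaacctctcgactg
The letters began 214 bases before the start in Ak4, 110 before it in Impdh2 and 78 before it in Ampd3, and Adssl1 had none in its window. Searched on both strands of windows from 250 bases before to 50 after the start, CACGTG was in 7 of 41 members with a window (Paics, Atic, Impdh2, Tyms, Nme1, Ak4 and Ampd3) against 8.09% of all 27025 genes with a window. The E2F letters TTTCGCGC, TTTGGCGC, TTTCCCGC and TTTGCCGC were together in 2 members (Ppat and Prps2), against 2.60% of all genes with a window. CACGTG is its own reverse complement and overlaps none of the E2F words. These matches describe letters in a window only.

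The synthesis branch from IMP to AMP and GMP held the member with the largest rise, Adssl1, the muscle-type adenylosuccinate synthase that commits IMP to AMP. Its level was -2.35, -1.97 and -1.42 on the B16-M arrays and 1.90, 1.27 and 1.01 on the B16-D arrays. It was 1.99, 0.98, 1.03 and 0.96 in B16-D-733 and 1.27, 1.07 and 1.28 in B16-D-739. These 10 arrays all lay above 0.9, while the B16-D-735 arrays, at -1.82, -0.54 and -0.58, lay between the B16-M arrays and zero, with 1 of them inside the B16-M range. Adssl1 was 9.90-fold higher in B16-D than in B16-M (log2 change 3.31, SE 0.38, limma adjusted p 0.00031), the 34th largest absolute change of 24312 genes. The rise was 3.16 (SE 0.36, limma adjusted p 0.000118) in B16-D-733 and 3.12 (SE 0.38, adjusted p 0.000288) in B16-D-739, while B16-D-735 differed from B16-M by 0.94 (SE 0.38, adjusted p 0.23). With the slide as a block these were 3.20, 3.19 and 3.12, and within single slides B16-D exceeded B16-M by 3.00 and 3.36, B16-D-733 by 2.45 to 3.96 and B16-D-739 by 2.70 to 3.62. None of these 3 calls was lost when any 1 array was left out (log2 change 2.90 to 3.55).

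The other adenylosuccinate synthase, the broadly expressed Adss, differed by less. Adss was at 0.06, -0.26 and -0.18 in B16-M and at 0.45, 0.17 and 0.21 in B16-D, and in B16-D-733 at 0.59, 0.33, 0.19 and -0.03. It was at 0.24, 0.09 and 0.15 in B16-D-735 and at 0.18, 0.12 and 0.19 in B16-D-739. Of these 13 arrays, 12 lay above all B16-M arrays and 1 B16-D-733 array did not. The change was 0.40 in B16-D and in B16-D-733 (SE 0.15 and 0.14, limma adjusted p 0.179 and 0.132), and with the replicate block it passed in B16-D-733 (0.46, limma adjusted p 0.0321).

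IMP dehydrogenase, which turns IMP toward GMP, is made by Impdh1 and Impdh2. Impdh2 was at 5.06, 4.80 and 4.84 in B16-M, at 5.38, 5.22 and 5.46 in B16-D, at 5.51, 5.53, 5.31 and 5.39 in B16-D-733, at 5.53, 5.32 and 5.31 in B16-D-739 and at 5.03, 4.76 and 4.68 in B16-D-735. The first 3 dormant lines lay above every B16-M and B16-D-735 array. Impdh2 rose by 0.53 (SE 0.12, limma adjusted p 0.0173) in B16-D-733, and the changes of 0.45 in B16-D and 0.49 in B16-D-739 did not pass (limma adjusted p 0.0723 and 0.0528). Both passed with the slide as a block (limma adjusted p 0.0381 and 0.0288), and that in B16-D-739 with the replicate block (0.021). Without B16-M replicate 1, B16-M replicate 2 or B16-D-733 replicate 1 the B16-D-733 change was 0.49 to 0.50 with limma adjusted p 0.0574 to 0.0884. Impdh1 was at 1.04, 0.85 and 0.60 in B16-M and at 1.81, 1.72 and 1.38 in B16-D-739, a change of 0.81 (SE 0.24, limma adjusted p 0.104) between arrays that did not overlap. In B16-D the mean level of Impdh1 was 1.27 ± 0.26 (SD, n = 3), with the lowest array, at 0.98, inside the B16-M range. It was at 1.83, 1.60, 0.99 and 1.53 in B16-D-733 and at 1.48, 0.68 and 1.21 in B16-D-735, and both lines overlapped B16-M. With the slide as a block Impdh1 passed in B16-D (0.62), B16-D-733 (0.63) and B16-D-739 (0.81), with limma adjusted p 0.0299, 0.0114 and 0.00499. Gmps, which makes GMP from XMP, changed by 0.34 in B16-D and in B16-D-733 and did not pass (limma adjusted p 0.192 and 0.152).

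**Figure D2:**
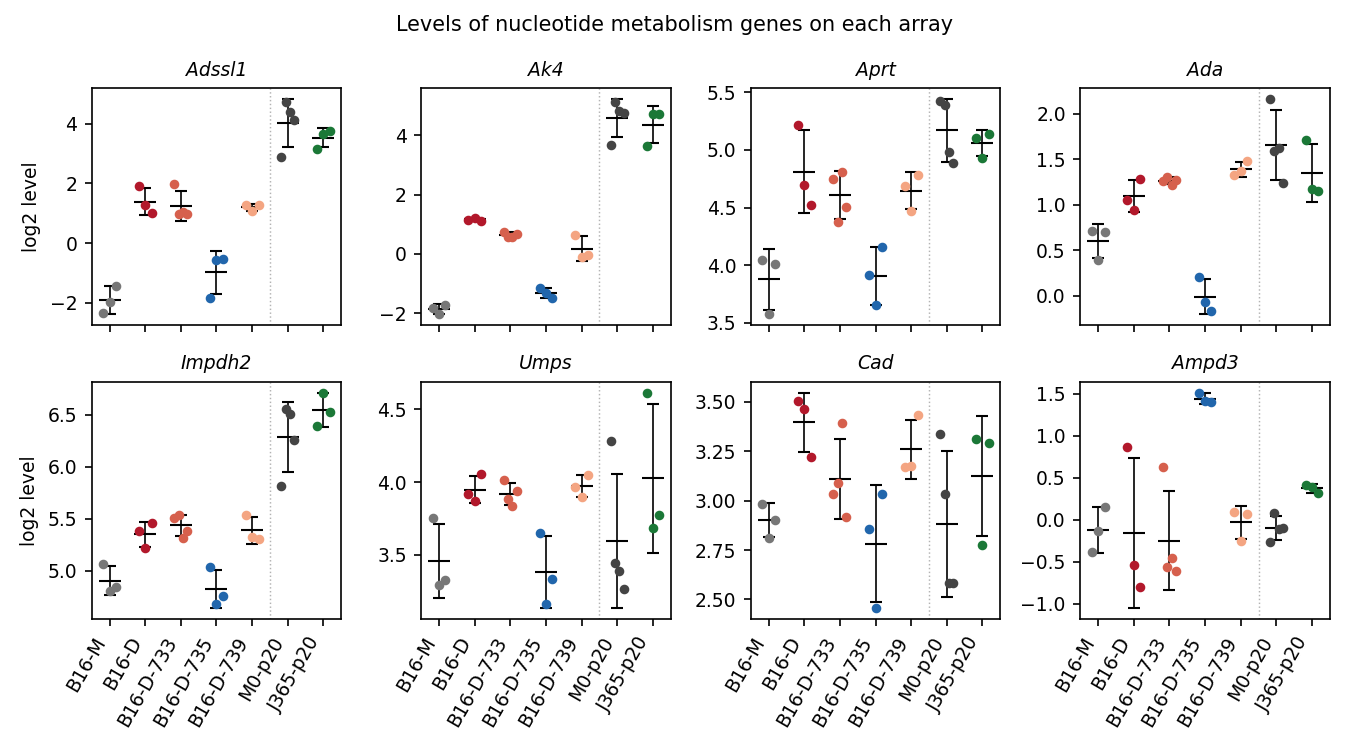
Log2 level on every array (dots) with the mean and SD of each line (black mark and bar) for Adssl1, Ak4, Aprt, Ada, Impdh2, Umps, Cad and Ampd3, in the 5 melanoma and 2 leukemia lines. Adssl1 and Ak4 lie above -0.2 on all arrays of B16-D, B16-D-733 and B16-D-739 and below -0.5 on all arrays of B16-M and B16-D-735, and Ampd3 lies above 1.3 on the B16-D-735 arrays alone.

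The earlier steps, from ribose phosphate to IMP, differed by small amounts. Prps1 and Prps2 make phosphoribosyl pyrophosphate, and Prps1 changed by 0.30 in B16-D, 0.39 in B16-D-733 and 0.28 in B16-D-739, none past the threshold (limma adjusted p 0.251, 0.0811 and 0.354). Of the 6 enzymes from there to IMP, 0 were called by limma in B16-D. There 5 of 6 changes were above 0, against 46.1% over all genes, and 2 had an unadjusted p under 0.05, against 16.6%. The largest were in Gart, a trifunctional enzyme of the ring (0.66, SE 0.22, limma adjusted p 0.134), and Atic, which closes it (0.60, SE 0.16, limma adjusted p 0.0553). All 6 changes were above 0 in B16-D-733 and in B16-D-739, and their medians were 0.26 and 0.27. Adsl, which acts on succinyl intermediates both before and after IMP, had the single change under 0 in B16-D, -0.06 (limma adjusted p 0.887).

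In the pyrimidine route, Umps, the enzyme that turns orotate into UMP, split the lines as Impdh2 did. It was at 3.75, 3.30 and 3.33 in B16-M and 3.65, 3.33 and 3.16 in B16-D-735, and between 3.83 and 4.05 on the 10 arrays of B16-D, B16-D-733 and B16-D-739. Those 10 arrays lay above the other 6, and the changes of 0.49, 0.46 and 0.51 did not pass the test (limma adjusted p 0.0889, 0.0724 and 0.0779), while the last passed with the replicate block (limma adjusted p 0.0437). Cad, which carries the first 3 activities of the route, was at 2.99, 2.81 and 2.90 in B16-M and 3.50, 3.46 and 3.22 in B16-D, with no overlap and a change of 0.50 (limma adjusted p 0.125). Ctps, which makes CTP from UTP, changed by 0.54 (limma adjusted p 0.122) in B16-D and passed in B16-D-733 with the replicate block (0.46, limma adjusted p 0.0362), and its relative Ctps2 by -0.19 (limma adjusted p 0.627). Dhodh, the mitochondrial dihydroorotate dehydrogenase, changed by 0.44 to 0.54 in the 4 lines without a call, and with the slide as a block it passed in B16-D-733 (0.50), B16-D-735 (0.51) and B16-D-739 (0.45), with limma adjusted p 0.0103, 0.0119 and 0.0291.

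Among the 6 salvage enzymes, Aprt, which returns adenine to AMP, was the only one called against B16-M. It was at 4.04, 3.57 and 4.01 in B16-M and at 5.22, 4.70 and 4.52 in B16-D. The B16-D-733 arrays were at 4.75, 4.37, 4.81 and 4.51, the B16-D-739 arrays at 4.69, 4.47 and 4.78, and the B16-D-735 arrays at 3.91, 4.16 and 3.65. Every array of the first 3 dormant lines lay above every array of B16-M and B16-D-735. Aprt was 1.91-fold higher in B16-D (log2 change 0.94, SE 0.20, limma adjusted p 0.0243) and rose by 0.73 in B16-D-733 (SE 0.19, limma adjusted p 0.0417), while 0.77 in B16-D-739 did not pass (limma adjusted p 0.0597) except with the slide or the replicate block (limma adjusted p 0.022 and 0.0401). The B16-D call was lost without B16-M replicate 1, B16-M replicate 2, B16-D replicate 0 or B16-D replicate 1 (log2 change 0.73 to 1.00, limma adjusted p 0.0532 to 0.121), and with B16-D replicate 2, at 4.16, included (0.77, limma adjusted p 0.086). The B16-D-733 call was lost without any 1 of B16-M replicates 0, 1 and 2 and B16-D-733 replicates 0, 1, 2 and 3 (0.58 to 0.82, limma adjusted p 0.0501 to 0.212). Within slides B16-D exceeded B16-M by 0.94 and 0.48, and with the slide as a block by 0.84 (limma adjusted p 0.0211).

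Hprt, the salvage enzyme for hypoxanthine and guanine, was at 5.04, 4.63 and 4.92 in B16-M and 5.49, 4.95 and 4.96 in B16-D, overlapping ranges with a change of 0.27 (limma adjusted p 0.436). Tk1, the thymidine kinase of dividing cells, was at 5.27, 4.87 and 4.92 in B16-M and 4.80, 4.93 and 4.99 in B16-D, a change of -0.11 (limma adjusted p 0.711). Hprt was at 5.12, 5.02, 4.97 and 4.97 in B16-D-733, 5.08, 5.08 and 4.80 in B16-D-735 and 5.08, 4.93 and 4.96 in B16-D-739, and Tk1 at 4.86, 4.87, 4.77 and 5.03, at 5.05, 4.84 and 4.75, and at 5.01, 5.01 and 4.97. Each of these lines overlapped B16-M in both genes. The mitochondrial kinases Tk2 and Dguok and the deoxycytidine kinase Dck changed by 0.18, -0.00 and -0.09 in B16-D, none past the threshold (limma adjusted p 0.685, 0.996 and 0.87).

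The genes that make DNA precursors were close to the parental level. The large subunit of ribonucleotide reductase, Rrm1, was at 4.34, 4.15 and 4.20 in B16-M and 4.13, 4.29 and 4.36 in B16-D. Its S-phase partner Rrm2 was at 5.74, 5.39 and 5.80 against 5.98, 5.77 and 5.80, and the p53-inducible partner Rrm2b at -1.69, -1.67 and -1.40 against -1.06, -1.59 and -1.74. Tyms, which makes dTMP, was at 4.64, 4.36 and 4.65 against 4.45, 4.64 and 4.62. The arrays of both lines overlapped for these 4 genes. In B16-D-733, B16-D-735 and B16-D-739, Rrm1 lay between 4.21 and 4.56 and Tyms between 4.32 and 4.90, and both overlapped B16-M in each line. Rrm2 was at 5.92, 5.87 and 5.99 in B16-D-739, above all B16-M arrays, and between 5.49 and 5.86 in the other 2 lines. Rrm2b was at -1.86, -1.97, -1.85 and -1.80 in B16-D-733, below all B16-M arrays, and between -1.96 and -1.43 in the other 2. Dut, which removes dUTP, changed by 0.02, 0.34, -0.25 and 0.29 in B16-D, B16-D-733, B16-D-735 and B16-D-739. The changes of the other 4 ran from -0.28 (Rrm2b in B16-D-733) to 0.28 (Rrm2 in B16-D-739), and limma called 0 of the 5 genes of this group in any of these lines. An unadjusted p under 0.05 was found for 1 in B16-D-739, against 14.0% of all genes, and for 0 in the other lines. With the slide as a block Dut passed in B16-D-733 (0.30) and B16-D-739 (0.29), with limma adjusted p 0.0214 and 0.0428.

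Among the nucleotide kinases the change lay in Ak4, a mitochondrial adenylate kinase of the matrix. Ak4 was at -1.82, -2.04 and -1.71 in B16-M and at 1.15, 1.22 and 1.11 in B16-D. It was at 0.74, 0.56, 0.57 and 0.68 in B16-D-733, at 0.65, -0.10 and -0.03 in B16-D-739 and at -1.15, -1.50 and -1.32 in B16-D-735. No melanoma line overlapped another in Ak4 except B16-D-733 and B16-D-739, and B16-D-735 stood just above B16-M. Ak4 was 8.09-fold higher in B16-D (log2 change 3.02, SE 0.18, limma adjusted p 6.13e-07) and rose by 2.49 (SE 0.16, limma adjusted p 7.81e-07) in B16-D-733 and by 2.03 (SE 0.18, limma adjusted p 1.5e-05) in B16-D-739. In B16-D-735 the change was 0.53 (SE 0.18, limma adjusted p 0.119). The 3 rises were 3.02, 2.47 and 2.03 with the slide as a block and 1.68 to 2.92 within single slides, and no call was lost when 1 array was left out. A second Ak4 probe was above background on no B16-M array and no B16-D-735 array, but on 3 of 3 B16-D, 3 of 4 B16-D-733 and 2 of 3 B16-D-739 arrays.

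The other 6 kinases were not called in any dormant line. Ak1, the cytosolic adenylate kinase, changed by 0.29 in B16-D and 0.71 in B16-D-735 (limma adjusted p 0.689 and 0.233). Nme1 and Nme2, which exchange phosphate between diphosphates and triphosphates, changed by 0.35 and 0.18 in B16-D, and the mitochondrial Nme4 by -0.39 (limma adjusted p 0.211, 0.61 and 0.27). For Nme1 its spot was an outlier on B16-D-733 replicate 3 and was dropped.

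Of the 3 deaminases, Ampd3 and Ada lay apart in B16-D-735. Ampd3, an AMP deaminase that turns AMP into IMP, was at -0.39, -0.13 and 0.16 in B16-M, 0.87, -0.54 and -0.80 in B16-D, 0.63, -0.56, -0.45 and -0.61 in B16-D-733 and 0.09, -0.26 and 0.07 in B16-D-739. On the B16-D-735 arrays it was at 1.52, 1.40 and 1.41, above all other arrays of the series. Replicate 0 of B16-D and of B16-D-733 lay apart from the other arrays of their lines, and it is the array of each whose title carries no date. Ampd3 was 2.96-fold higher in B16-D-735 than in B16-M (log2 change 1.56, SE 0.39, limma adjusted p 0.0379), by 1.25, 1.65 and 1.80 within the slides and by 1.56 with the slide as a block (limma adjusted p 0.0274). This call was lost without any 1 of B16-M replicates 0, 1 and 2 and B16-D-735 replicates 0, 1 and 2 (1.43 to 1.70, limma adjusted p 0.0663 to 0.118). A second, dimmer Ampd3 probe was above background on 3 of 3 B16-D-735 arrays and on 1 of 3 B16-M arrays. Ampd2, the more widely expressed AMP deaminase, changed by -0.26 in B16-D-735 (limma adjusted p 0.204).

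Ada, adenosine deaminase, which turns adenosine into inosine, was called in both directions. It was at 0.71, 0.39 and 0.70 in B16-M, 1.05, 0.94 and 1.28 in B16-D, 1.26, 1.31, 1.22 and 1.27 in B16-D-733, 1.32, 1.37 and 1.48 in B16-D-739 and 0.20, -0.17 and -0.07 in B16-D-735. The B16-M arrays lay between B16-D-735 and the other dormant lines, with no overlap on either side. Ada rose by 0.66 (SE 0.12, limma adjusted p 0.00516) in B16-D-733 and by 0.79 (SE 0.13, limma adjusted p 0.00307) in B16-D-739, and was at 0.49 above B16-M in B16-D without passing (limma adjusted p 0.0561). In B16-D-735 it fell by 0.61 (SE 0.13, limma adjusted p 0.0139), and this call was lost without B16-M replicate 0, B16-M replicate 2, B16-D-735 replicate 1 or B16-D-735 replicate 2 (-0.58 to -0.53, limma adjusted p 0.0579 to 0.0682). Its second probe moved the same way, by 0.76 in B16-D, 0.60 in B16-D-733, 0.62 in B16-D-739 and -0.25 in B16-D-735. With the slide as a block the Ada changes were 0.65, 0.79 and -0.61 in the 3 lines with a call. The B16-D-733 and B16-D-735 calls were lost with 1 fit of both models. Those in B16-D-739 and B16-D-735 were lost with only the compared lines in the fit. Pnp, which splits inosine and guanosine, changed by 0.07, -0.08, -0.06 and 0.15 in the 4 lines and was not called (limma adjusted p 0.743 to 0.953), and neither were Samhd1, Nudt1 and Nudt5, which trim or clean the nucleotide pool.

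Against B16-D instead of B16-M, B16-D-735 was the line that differed. Limma called 8 of 43 members between B16-D-735 and B16-D, against 8.0% of all genes (1946 of 24312), 0 between B16-D-733 and B16-D (0.481% of all genes) and 1 between B16-D-739 and B16-D (0.308%). These comparisons share the B16-D arrays. For B16-D-733, 2 of 43 members had an unadjusted limma p under 0.05, Ak4 (-0.52) and Rrm2b (-0.41), where 4.37% of all genes had such a p. In B16-D-735, Ampd3 was higher (1.60, SE 0.39, limma adjusted p 0.0257) and 7 members were lower. Ak4 fell by 2.48 (limma adjusted p 2.52e-06), Adssl1 by 2.37 (limma adjusted p 0.00183) and Ada by 1.11 (limma adjusted p 0.000152), and these 3 calls held without any 1 array. With only the compared lines in the fit, the Ak4 call held and those of Adssl1 and Ada were lost. Aprt fell by 0.91 (limma adjusted p 0.0165), Cad by 0.61 (0.0345), Umps by 0.57 (0.0305) and Impdh2 by 0.53 (0.0219). The Cad arrays of B16-D-735, at 2.86, 3.03 and 2.46, lay below all 3 B16-D arrays, at 3.22 to 3.50. Within slides 1 and 3, which held both lines, Ak4 differed by -2.68 and -2.43, Adssl1 by -2.12 and -1.59, and Ampd3 by 1.24 and 2.21.

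Several of these calls were lost when 1 array was left out. The Aprt call was lost without B16-D-735 replicate 2 (-0.78, limma adjusted p 0.0809). Impdh2 was lost without B16-D replicate 3 or B16-D-735 replicate 1 or 2 (-0.49 to -0.45, 0.0721 to 0.104). Cad was lost without B16-D replicate 0 or 1 or B16-D-735 replicate 0 or 2 (-0.65 to -0.45, 0.0671 to 0.155), and its second probe differed by -0.29. Umps was lost without B16-D replicate 1 or 3 or B16-D-735 replicate 1 or 2 (-0.60 to -0.46, 0.0646 to 0.141), and Ampd3 without B16-D replicate 1 or 3 or any B16-D-735 array (1.28 to 1.62, 0.0641 to 0.105). The count was 5 without B16-D replicate 1, B16-D replicate 3 or B16-D-735 replicate 1, and 3 without B16-D-735 replicate 2. The single call in B16-D-739 was Ak4, which fell by 0.99 (SE 0.18, limma adjusted p 0.0328) and was lost without B16-D replicate 0, 1 or 3 or B16-D-739 replicate 1 or 2 (-1.02 to -0.85, limma adjusted p 0.0782 to 0.189), and with the slide as a block (limma adjusted p 0.0645). The higher summed level of the fibroblast markers in B16-D-735, to which Pdgfra ran opposite (mean -6.12, against -3.76 in B16-M), accompanies these results, and its part in them was not tested.

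The order of lines seen in Adssl1 and Ak4 was counted over all genes as the pattern in which the 10 arrays of B16-D, B16-D-733 and B16-D-739 all lay above the 6 arrays of B16-M and B16-D-735. It held for 6 of 43 members (Adssl1, Impdh2, Umps, Aprt, Ak4 and Ada) and for 1.93% of the 24312 genes. The pattern was chosen with these values known, so the count is a description.

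Synthesis and salvage were set against each other through the changes of their members, with 18 synthesis genes (phosphoribosyl pyrophosphate, purine and pyrimidine routes) and 6 salvage genes. In B16-D the median log2 change of the synthesis genes was 0.42, with 16 of 18 above 0, against 0.09 for salvage, with 3 of 6 above 0, and -0.04 over all genes. In B16-D-733 the medians were 0.39 for synthesis (17 of 18 above 0) and 0.03 for salvage, and 0.03 over all genes. In B16-D-739 they were 0.32 (17 of 18), -0.00 and 0.00. In B16-D-735 they were 0.14 (13 of 18), -0.05 and -0.01. Limma called 1, 2, 1 and 0 synthesis genes in B16-D, B16-D-733, B16-D-739 and B16-D-735, and 10, 11, 10 and 1 of 18 had an unadjusted p under 0.05. Over all genes, 16.6%, 17.5%, 14.0% and 16.3% had such a p, and 46.1%, 53.7%, 50.4% and 49.1% of the changes were above 0, in the same order of lines. Changes above 0 were not limited to synthesis. Of the 43 members, 35, 34, 36 and 24 had a change above 0, in the same order of lines. In B16-D, 5 of 5 genes that make DNA precursors and 6 of 7 nucleotide kinases did. No test of the list as a whole was made.

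Per array, each gene was set against its mean in the parental line of its model and the median taken over a list. The synthesis median was 0.20, -0.12 and -0.06 on the B16-M arrays and 0.31 to 0.47 in B16-D, 0.21 to 0.44 in B16-D-733 and 0.28 to 0.33 in B16-D-739. All arrays of these 3 lines lay above all 3 B16-M arrays, whereas B16-D-735, at 0.03 to 0.22, overlapped B16-M. The salvage medians overlapped in all lines, at -0.10 to 0.17 in B16-M and -0.00 to 0.41 in B16-D. The highest B16-M array, replicate 0, lay on slide 3, where the synthesis changes were smallest. Within slide 3 they were 0.20 in B16-D, 0.09 in B16-D-733, 0.15 in B16-D-739 and -0.21 in B16-D-735. Within slide 1 they were 0.42, 0.48, 0.39 and 0.16, and within slide 2, which held no B16-D array of the fits, 0.62 in B16-D-733, 0.42 in B16-D-739 and 0.34 in B16-D-735. The direction thus held on every slide with both lines for B16-D, B16-D-733 and B16-D-739, and for B16-D-735 it turned on slide 3.

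**Figure D3:**
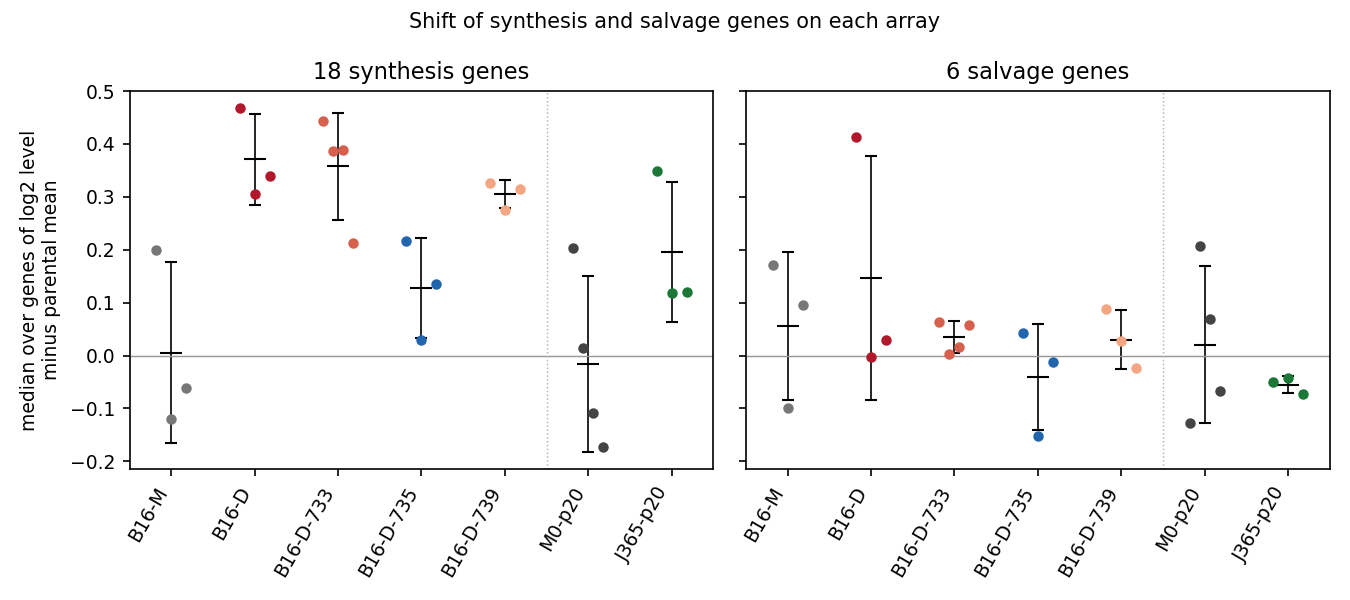
Median over the 18 synthesis genes and over the 6 salvage genes of the log2 level minus the mean of the parental line, on every array (dots), with the mean and SD of each line (black mark and bar). The synthesis median has a mean of 0.01 in B16-M and of 0.37, 0.36 and 0.31 in B16-D, B16-D-733 and B16-D-739, while the salvage means lie between -0.05 and 0.15.

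Genes of the cell cycle were set beside these values, since nucleotide synthesis rises in dividing cells. Over 20 such genes the median change was 0.18 in B16-D, 0.19 in B16-D-733, 0.21 in B16-D-739 and -0.02 in B16-D-735, and limma called 0 of 20 in each. In that order 16, 17, 17 and 9 of 20 changes were above 0, against 46.1%, 53.7%, 50.4% and 49.1% over all genes. An unadjusted limma p under 0.05 was found for 4, 6, 4 and 1 of 20, against 16.6%, 17.5%, 14.0% and 16.3% over all genes. Between B16-D-735 and B16-D, Cdc45 (-0.46) and Mcm4 (-0.43), both of the replicative helicase, were lower (limma adjusted p 0.035 and 0.0342). These were 2 of 20 called, a share near the 8.0% over all genes. An unadjusted limma p under 0.05 was found there for 6 of 20, against 19.7% of all genes. Myc, a transcription factor known to act on nucleotide synthesis genes, was at 0.91, 0.54 and 0.66 in B16-M, 1.79, 2.03 and 1.64 in B16-D and 1.42, 0.95 and 0.64 in B16-D-735. It did not overlap B16-M in B16-D and overlapped it in B16-D-735. Myc rose by 1.12 in B16-D, 0.94 in B16-D-733 and 0.92 in B16-D-739 (limma adjusted p 0.0148, 0.0178 and 0.0394), and by 0.30 in B16-D-735 it did not pass. It was lower in B16-D-735 than in B16-D (log2 change -0.82, limma adjusted p 0.0413). The part of cell division or of Myc in the member changes was not tested.

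In the leukemia model, limma called 0 of 44 members between J365-p20 and M0-p20, against 1.07% of 22968 genes. An unadjusted limma p under 0.05 was found for 3 of 44, a share near the 6.89% over all genes: Ak1 (-0.82), Guk1 (0.57) and Ampd3 (0.47). Ampd3 was at -0.26, 0.08, -0.11 and -0.10 in M0-p20 and 0.42, 0.39 and 0.32 in J365-p20, with no overlap (SE 0.15, limma adjusted p 0.465). The synthesis median was 0.19, with 14 of 18 above 0, against -0.02 for salvage and -0.02 over all genes. Of all 44 members 31 had a change above 0, and of all genes 47.5%. The synthesis median was -0.01, 0.36 and 0.19 within slides 1, 2 and 3. The largest synthesis changes were in Gart (0.71, SE 0.36, limma adjusted p 0.856) and Ppat (0.65, SE 0.37, limma adjusted p 0.898), the first enzyme of the purine route. For both genes replicate 0 of M0-p20 (0.58 and 1.47) and of J365-p20 (1.47 and 1.75) lay above the other arrays of its line.

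The 2 genes with the largest rises in dormant melanoma were higher still in the leukemia lines. Adssl1 was at 2.87, 4.71, 4.39 and 4.13 in M0-p20 and 3.16, 3.64 and 3.77 in J365-p20, above every melanoma array. Ak4 was at 3.65, 5.11, 4.82 and 4.76 and at 3.62, 4.73 and 4.71, also above every melanoma array. Neither gene separated the leukemia lines (-0.50, SE 0.43, and -0.23, SE 0.42, limma adjusted p 0.975 and 0.978), and replicate 0 was the lowest array of each line. Impdh2 (5.82, 6.55, 6.51 and 6.26 in M0-p20) and Impdh1 (2.93, 2.84, 3.21 and 3.08) also lay above every melanoma array. Tk1, at 3.69, 3.49, 3.51 and 3.06, lay below every melanoma array, as did Hprt in J365-p20, at 4.47, 4.44 and 4.39. Between B16-M and M0-p20, limma called 29 of 43 members, 13 higher and 16 lower in B16-M than in M0-p20, against 51.7% of 20818 genes. The log2 change was -6.44 for Ak4, -5.94 for Adssl1, -2.18 for Impdh1 and -1.29 for Aprt. Nme1 was higher by 2.30, Tk1 by 1.58 and Gart by 1.39. Of the synthesis genes, 2 were called higher and 9 lower in B16-M (median -0.38), and of the salvage genes 3 were higher and 1 lower (median 0.28), where the median over all genes was -0.22. The tissue of origin and the culture differ between these lines together, and cannot be told apart.

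The change in B16-D against B16-M minus that in J365-p20 against M0-p20 was tested directly in 1 fit of 23 arrays. It passed for 2 of 43 members, against 1.36% of genes: Adssl1 (3.81, SE 0.59, limma adjusted p 0.000853) and Ak4 (3.25, SE 0.43, limma adjusted p 0.000163). Both calls held without any 1 of the 13 arrays of these lines (3.56 to 4.19 and 2.88 to 3.56) and with the slide as a block (3.69 and 3.19). For Aprt the difference of 1.05 did not pass (limma adjusted p 0.0767), and it passed with the slide as a block.

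**Figure D4:**
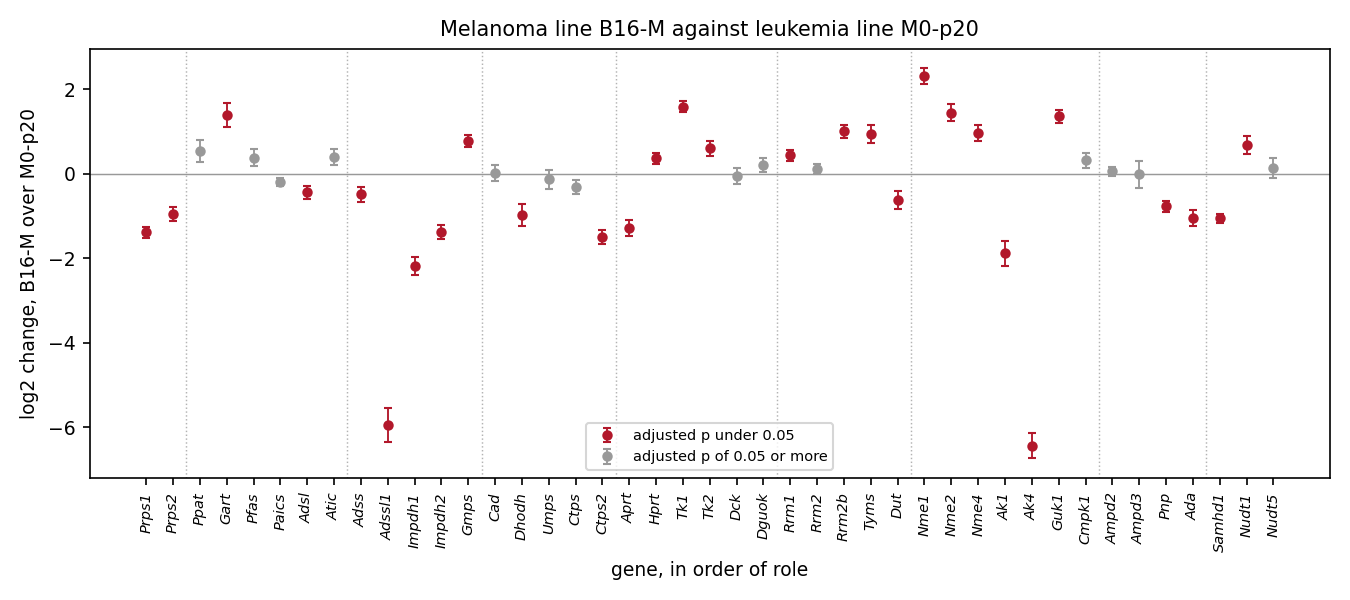
Log2 change of each member (horizontal axis, in order of role) in B16-M over M0-p20, with bars for the standard error and red for an adjusted p under 0.05. Adssl1 (-5.94) and Ak4 (-6.44) lie far under the other members, Nme1 (2.30) is the highest, and 29 of 43 members are red.

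A list of 56 other genes of nucleotide, folate and transport metabolism, of which 52 were tested in melanoma, was counted in the same way. Limma called 5 of 52 in B16-D, all higher, 7 in B16-D-733 (6 higher, 1 lower), 7 in B16-D-739 (all higher) and 7 in B16-D-735 (4 higher, 3 lower), where 3.60%, 5.57%, 3.71% and 5.03% of all genes were called. The 3 lower calls in B16-D-735 include Ak5, which was above background on no B16-M and no B16-D-735 array, so that call does not show a difference. Upp1, uridine phosphorylase, rose in all 4 lines. It was at -5.62, -6.81 and -7.05 in B16-M, where no array was above background, and at -2.75, -3.98 and -4.33 in B16-D and -2.86, -2.71 and -3.25 in B16-D-735. Upp1 was at least 2.32-fold higher in B16-D, 1.84-fold in B16-D-733, 2.08-fold in B16-D-739 and 3.90-fold in B16-D-735, as bounds set by the lowest signal above background on each B16-M array, with limma adjusted p 0.00182, 0.00162, 0.00203 and 0.000154 in that order. Slc29a2, an equilibrative nucleoside transporter, was at -4.23, -4.37 and -4.37 in B16-M and between -3.62 and -2.39 on every other melanoma array of the fits. It rose by 1.20, 1.35, 1.83 and 1.02 in B16-D, B16-D-733, B16-D-739 and B16-D-735.

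Uck2, a uridine and cytidine kinase, rose by 0.62 in B16-D, 0.57 in B16-D-733 and 0.53 in B16-D-739 (limma adjusted p 0.0152, 0.0109 and 0.0335). The adenylate kinase Ak5 was above background on no B16-M and no B16-D-735 array and on every B16-D and B16-D-739 array, at least 1.83-fold and 2.18-fold over B16-M. Cda, cytidine deaminase, was lower in B16-D-735 than in B16-M (log2 change -1.49, SE 0.25, limma adjusted p 0.00329) and than in B16-D (-1.81, limma adjusted p 0.000706), where 2 of 3 B16-D-735 arrays were above background, so that both sizes rest in part on a dim array. The transporter Slc29a1 was lower in B16-D-735 than in B16-M (log2 change -0.59, limma adjusted p 0.00894), at 1.73, 1.74 and 1.65 against 2.42, 2.17 and 2.32. Aldh1l1, a folate enzyme, fell by 1.16 in B16-D-733 (limma adjusted p 0.0297), and Dctd, which turns dCMP into dUMP, rose by 0.76 in B16-D (limma adjusted p 0.0225). Prpsap1, a partner of the phosphoribosyl pyrophosphate synthetases, rose by 0.52 in B16-D-739 (limma adjusted p 0.00702), and Dctpp1, which clears dCTP, by 0.45 in B16-D-733 (limma adjusted p 0.0279). Against B16-D, limma called 10 of 52 in B16-D-735 (2 higher, 8 lower, against 8.0% of all genes) and 1 in B16-D-733 (Mthfd2l, 0.80, against 0.481%). It called 0 in B16-D-739 (against 0.308%), where 1 had an unadjusted p under 0.05, against 5.08% of all genes. In B16-D-735 the folate enzyme Mthfd2l was higher than in B16-D by 0.91 and Ggh by 0.67, Slc29a1 fell by 0.99 and Ahcy by 0.67, and Ak5 was at least 2.07-fold lower. In the leukemia comparison limma called 0 of 47 of these genes, with 4 at an unadjusted p under 0.05, against 6.89% of all genes. Between the models, the difference of the B16-D and J365-p20 changes passed for Upp1 (limma adjusted p 0.00166), and its size is not given because no B16-M array was above background.

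**Figure D5:**
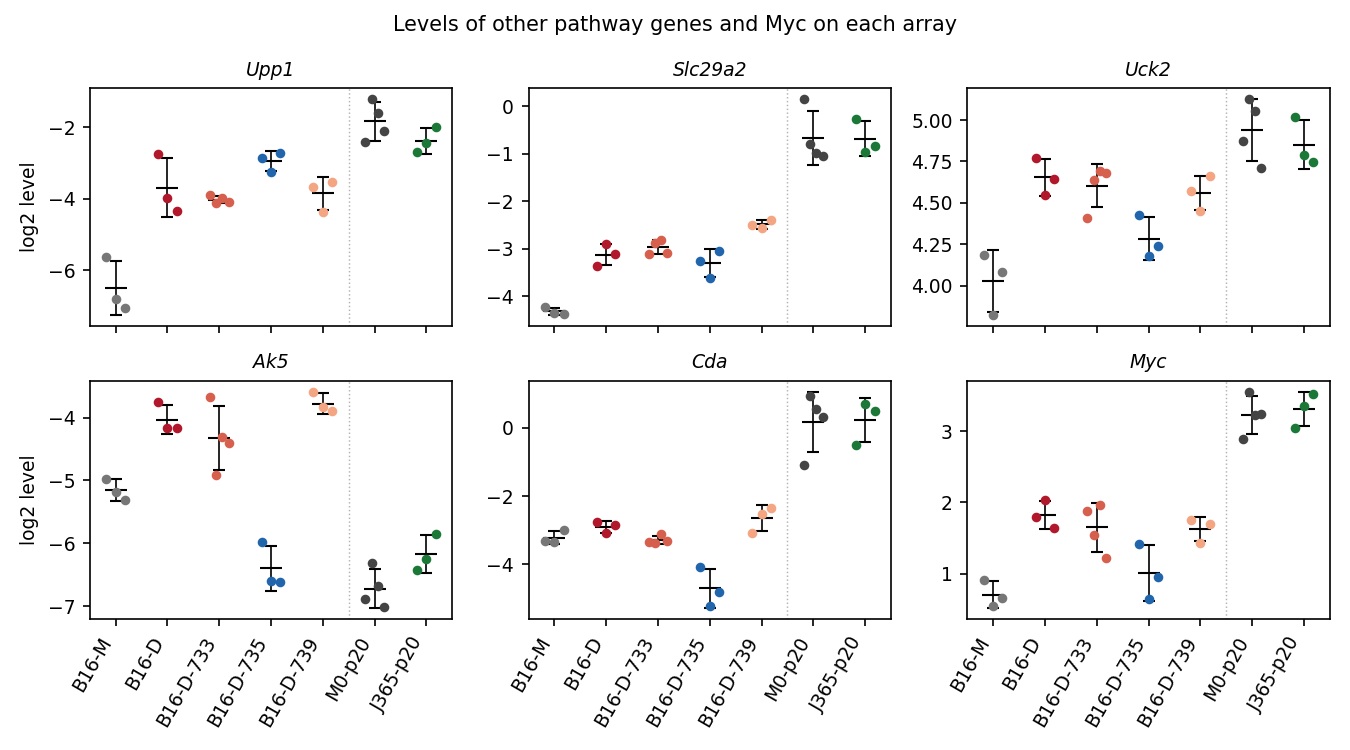
Log2 level on every array (dots) with the mean and SD of each line (black mark and bar) for Upp1, Slc29a2, Uck2, Ak5, Cda and Myc. Upp1 lies below -5.6 on the B16-M arrays and above -4.4 on all arrays of the 4 dormant melanoma lines, and Cda lies lowest in B16-D-735.

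The 44 members were covered by 65 probes, 1 probe for 27 members and several for 17. Values are those of the brightest probe. Adssl1 and Aprt have 1 probe each, so no second probe of the array speaks to them, and cross-hybridization between close relatives such as Adss and Adssl1 was not tested. For Umps and Ada the second probe differed between B16-D-735 and B16-D by -0.52 and -1.01, and for Impdh2 by -0.75. Against B16-M, the second Impdh2 probe differed by 0.70 in B16-D, 0.57 in B16-D-733, 0.60 in B16-D-739 and -0.05 in B16-D-735.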

How the data were processed

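RNA of 7 mouse cell lines was measured on 24 Agilent 1-colour arrays (Cy3), 8 on each of 3 slides. The authors deposited, for every spot, the intensity from Agilent Feature Extraction 10.7.3.1, which had been background-subtracted and detrended, per the file headers, with no scaling between arrays. The deposited series table held the same intensity values on 24 of 24 arrays. Each array had 62976 spots, of which 3671 were controls, and 56605 distinct probes. Control spots and, over all arrays, 2468 outlier spots were dropped, and no spot was saturated.

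From these, log2 of the processed signal minus the 75th percentile of its array was computed, spots of a probe were averaged, and the brightest probe stood for a gene. Probes were named through RefSeq. Genes well above background on at least 3 arrays of each model in a fit were fitted with limma 3.58.1 in R 4.3.3 (lmFit and eBayes, two-sided, Benjamini-Hochberg over all genes of a fit, threshold 0.05). There was 1 fit of 16 melanoma arrays, 1 of 7 leukemia arrays and 1 of all 23. B16-D replicate 2, with far more spots above background than any other array, was left out. The number of arrays limits the precision. The fit was tested on simulated data with known changes. Python 3.11.15, numpy 2.4.6, pandas 2.3.3 and matplotlib 3.10.9 were used for summaries and figures.

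Every member was counted. Values by array were given for members called against the parental line or in opposite directions, for Adss, Adssl1, Impdh1, Impdh2, Rrm1, Rrm2, Rrm2b, Tk1, Tyms, Hprt and Aprt, and for members with no probe above background in a model, with up to 6 called genes a comparison from the list of other pathway genes. For some of these a range or a mean and SD stands in place of single arrays. For 1 called gene of that list, values are not reported here. The members, the lists and this rule were chosen with earlier results of these data known.

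Alternatives were normexp background correction (offset 50, on the median spot signal in place of the mean), quantile scaling, a percentile over detected probes, other probe and background rules, the slide or the replicate number as a block, other sets of arrays, wider lists, and each array left out. Same-numbered arrays deviated together (every correlation over 0.1) in B16-D-733 against B16-M (0.63, 0.42 and 0.86) and in B16-D-739 against B16-M (0.80, 0.66 and 0.87). The B16-D-739 numbers coincide with the slides of B16-M. The rule was also met in B16-D-735 against B16-D for replicates 0 and 1 (0.26 and 0.69). For replicate 0 of that pair an array of another number correlated more (0.36). As for each replicate 0, the numbers of B16-D-733 replicate 3 and B16-D-735 replicate 2 are not in the sample names and were inferred from title prefixes.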

Additional observations from a re-analysis of the deposited data

Results flagged for a closer look

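In 7 of 87 groups of 4 arrays or more, 1 array of a member lay far from the rest of its line, where chance gives about 1 in 20. Adssl1 was at 1.99 on B16-D-733 replicate 0, whose title carries no date, and at 0.96 to 1.03 on the other arrays of the line, whose titles do. On the same array Ampd3 was at 0.63, against -0.61 to -0.45, and Prps2 at 2.40, against 1.87 to 1.96. Tk2 was at -0.76 on B16-D-733 replicate 2, against -1.24 to -1.17. On M0-p20 replicate 0, Ppat was at 1.47, against 0.19 to 0.38, and Adss at 0.90, against 0.15 to 0.21. Nt5e was at -4.54 on M0-p20 replicate 2, against -4.10 to -4.06.

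The change in B16-D against B16-M differed from that in J365-p20 against M0-p20 for Adssl1, by 3.81 (SE 0.59, limma adjusted p 0.000853), and for Ak4, by 3.25 (SE 0.43, limma adjusted p 0.000163).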

How the results depend on the processing

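The number of arrays and the spread between them limit which small changes pass, so counts of members called moved with the settings. B16-D against B16-M had 3 calls, and 5 with the mean of all probes, with a filter on every array of a line, with the slide as a block and with the replicate block. B16-D-733 against B16-M had 5, and 9 with the slide as a block and 3 with no filter, with the compared lines only or with 1 fit of both models. B16-D-735 against B16-M had 2, and 1 with no filter, undated arrays, the compared lines only or 1 fit of both models. B16-D-739 against B16-M had 3, and 5 with quantile scaling, the mean of all probes or the filter on every array of a line, 8 with the slide as a block and 7 with the replicate block. B16-D-735 against B16-D had 8, and 5 with no filter, with B16-D replicate 2 or with 1 fit of both models, 4 with undated arrays and 1 with the compared lines only. B16-D-739 against B16-D had 1, and 0 with no filter, the slide as a block, the replicate block, B16-D replicate 2, the compared lines only or 1 fit of both models. For B16-D-735 against B16-D, undated arrays left only replicate 0 of B16-D. The spread within B16-D could not be estimated there, so no conclusion is drawn from that count. Other counts with undated arrays are not given where this left 1 array of a line. The cause of these shifts was not tested. Among the comparisons with B16-M, the array numbers bear out the replicate block for B16-D-733 and B16-D-739 only. Under that block the rises in B16-D, B16-D-733 and B16-D-739 were 3.53, 3.28 and 3.12 for Adssl1 and 3.01, 2.49 and 2.03 for Ak4. The same rule was met in B16-D-735 against B16-D, and in the remaining pairs the numbers did not pair the arrays by it.

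With 1 array left out, the counts ran from 2 to 6, 3 to 6, 0 to 1 and 3 to 5 for B16-D, B16-D-733, B16-D-735 and B16-D-739 against B16-M, from 0 to 0, 3 to 8 and 0 to 1 for B16-D-733, B16-D-735 and B16-D-739 against B16-D, from 0 to 0 for J365-p20 against M0-p20, from 24 to 30 for B16-M against M0-p20, and from 2 to 3 for the difference between models. The synthesis medians ran from 0.35 to 0.49, 0.29 to 0.51, 0.08 to 0.27 and 0.26 to 0.41 against B16-M, from -0.03 to 0.05, -0.33 to -0.13 and -0.04 to 0.02 against B16-D, from 0.12 to 0.24 in leukemia and from -0.49 to -0.28 between models. The salvage medians ran from 0.03 to 0.24, -0.00 to 0.12, -0.10 to 0.04 and -0.0466 to 0.12 against B16-M, from -0.27 to -0.01, -0.25 to -0.06 and -0.24 to 0.04 against B16-D, from -0.06 to -0.01 in leukemia and from 0.20 to 0.35 between models.

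Within slide 2 the synthesis medians against B16-M were 0.62 in B16-D-733 and 0.34 in B16-D-735, and the salvage medians 0.16, 0.15 and 0.15 in B16-D-733, B16-D-735 and B16-D-739. Within slide 3 the synthesis medians were 0.20, 0.0857, -0.21 and 0.15 in B16-D, B16-D-733, B16-D-735 and B16-D-739, that of salvage in B16-D-735 was -0.28, and synthesis in B16-D-735 against B16-D was -0.41. In leukemia, synthesis was -0.00555 and salvage -0.19 within slide 1, and synthesis 0.36 within slide 2. For B16-M against M0-p20, synthesis was -0.62 and -0.12 within slides 2 and 3 and -0.20 with more genes in the list, and salvage 0.0669 with more genes. With undated arrays only, replicate 0 alone stood for B16-D and for B16-D-733. Salvage was then 0.41 in B16-D against B16-M, while the per-array salvage medians of B16-D replicates 1 and 3 were -0.0034 and 0.0303. It was -0.42, -0.48 and -0.50 in the numbered lines against B16-D, and synthesis was 0.0749 in B16-D-733 against B16-D.

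Taking the percentile over detected probes moved the share of higher calls over all genes from 55.5% to 41.6% in B16-D, 57.1% to 40.8% in B16-D-733, 61.0% to 48.3% in B16-D-735 and 58.1% to 45.2% in B16-D-739, all against B16-M.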
